A study of Sus scrofa with 42 samples.

Results

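The 14-3-3 proteins are a family of small, acidic adaptor proteins that are encoded by several YWHA genes. The genes were examined here in single cells of pig embryos from the 1-cell to the 8-cell stage. They were chosen by name from the deposited gene table because YWHAE, which encodes the epsilon form, is among the most abundant nuclear transcripts in every group, so the level and the rank of YWHAE are descriptions and carry no test. The table held 15351 genes, of which 5 were named as members (YWHAB, YWHAE, YWHAG, YWHAH and YWHAQ). A sixth member, YWHAZ, carried no name in the table and was found by its gene ID, ENSSSCG00000006062, and its position. SFN, the other known mammalian 14-3-3 gene, was not analysed here. All 6 members passed the filter on low values.

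Embryos were made by in vitro fertilization (IVF), which gives an embryo with a maternal and a paternal genome, or by parthenogenetic activation (PA), in which the oocyte is activated without sperm and the embryo has maternal genomes only. Oocytes came from gilt ovaries and were matured in vitro, so both kinds of embryo share the same culture before fertilization or activation. In each method, 3 cells were sequenced at the 1-cell stage, 6 at the 2-cell stage, 9 at the 4-cell stage and 3 at the 8-cell stage, 42 cells in all. The numbers in the sample descriptions place these cells in 3 embryos per group at the 1-cell, 2-cell and 4-cell stages but in 1 embryo per method at the 8-cell stage. Sister blastomeres of 1 embryo are not replicates, so values were averaged within an embryo and 20 embryos were compared. Levels are given in FPKM, fragments scaled by gene length and by the mapped reads of the cell, which give only the share a gene has of the reads of its cell, so more copies of a transcript and fewer copies of all others cannot be told apart.

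A 14-3-3 protein works as a dimer that clasps proteins carrying a phosphorylated serine or threonine in a suitable motif. Binding can hide a localization signal, keep an enzyme inactive or bring 2 partners together, and many of the clients are regulators of the cell cycle, of survival and of growth. In oocytes, 14-3-3 proteins are best known for holding the CDC25 phosphatases in an inactive state, which keeps the cell from entering M phase until the phosphate on CDC25 is removed. The early embryo first lives on transcripts that the oocyte stored, and in the pig the main activation of its own genome falls around the 4-cell stage.

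The members lie apart in the genome (Sscrofa11.1, coordinates of the deposited table). YWHAE spans chr12:47600244-47645176 on the minus strand. The other members are on plus strands, with YWHAZ at chr4:35975508-36010670, YWHAB at chr17:47297630-47319758, YWHAG at chr3:9994833-10024031, YWHAQ at chr3:126738803-126773220 and YWHAH at chr14:48543691-48557966. None of them overlaps another gene of the table. Their coding sequences in the RefSeq annotation of the same build are 738 to 768 bases long and resemble each other, so the most alike stretch of 60 bases is shown here because it bears on whether reads of 1 member could be counted for another. All 6 stretches lie in coding exons and are read 5′ to 3′ on the strand of the gene, and capitals mark bases that differ from YWHAE.
YWHAE: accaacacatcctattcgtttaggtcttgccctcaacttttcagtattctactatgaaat
YWHAZ: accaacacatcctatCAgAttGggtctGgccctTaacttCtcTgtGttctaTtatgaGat
YWHAB: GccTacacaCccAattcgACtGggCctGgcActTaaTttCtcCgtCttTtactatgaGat
YWHAG: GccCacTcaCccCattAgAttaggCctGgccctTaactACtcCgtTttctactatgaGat
YWHAQ: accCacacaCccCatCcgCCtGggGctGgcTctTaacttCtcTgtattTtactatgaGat
YWHAH: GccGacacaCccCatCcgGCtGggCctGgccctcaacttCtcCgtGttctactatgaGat
The stretches lie at chr12:47612035-47612094 (minus strand, coding exon 4 of YWHAE), chr4:36004830-36004889 (coding exon 3 of YWHAZ), chr17:47316319-47316378 (coding exon 3 of YWHAB), chr3:10020309-10020368 (coding exon 2 of YWHAG), chr3:126770391-126770450 (coding exon 3 of YWHAQ) and chr14:48555454-48555513 (coding exon 2 of YWHAH). Even here YWHAZ differed from YWHAE at 11 of 60 bases and YWHAB at 17, and 38 columns were the same in all 6.

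Over the whole coding sequence, YWHAE was the most distant member, with 60.6% to 63.7% of aligned bases identical to each of the others. YWHAG and YWHAH were the closest pair, at 80.2%. The longest run of identical bases shared by any pair was 30 bases, between YWHAG and YWHAH, and YWHAE shared at most 26 bases with any other member. Besides the place of SFN, stretches elsewhere in the genome matched a member's coding sequence at 75.3% to 94.7% of aligned bases. The genome holds a copy of YWHAE at chr3:109199387-109200141 that matches 94.7% of the aligned coding bases, and the table gene at this place reached 1.85 FPKM in 1 cell and was at 0 in the other cells. The table genes at copies of YWHAG, YWHAQ and YWHAZ reached 9.76, 13.25 and 1.11 FPKM, each in at most 8 cells above 0. Reads that could have moved between a member and its copy were not examined, because only gene values were deposited.

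Depth was high for single cells. For each of the 11803 genes above 0 in at least 3 cells a value of 1 read was found. It was chosen as the largest value that makes all cells of the gene whole numbers of reads. That values under 1000 reads are whole within 0.01 reads is thus a condition of the search and no check of it. As a separate check, this value times gene length was the same within 0.0001 of the median for all 22 mitochondrial genes that had one. The cells had 5639008 to 19516939 reads on genes, with a median of 12279079. These are reads of amplified cDNA without molecular identifiers, so they are not independent molecules. Between 6.07% and 63.0% of summed FPKM came from mitochondrial genes in a cell, rising from medians of 17.1% in IVF 1-cell and 13.2% in PA 1-cell cells to 52.3% in IVF 8-cell and 45.5% in PA 8-cell cells. Of the oocyte and early embryo markers, 7 of 9 were in the table and all reached 1 FPKM in some cell. The 4 cumulus cell markers in the table summed to at most 12.2 FPKM in an embryo. Only 2 of 7 sperm markers, ODF2 and AKAP4, were in the table. They summed to at most 5.18 FPKM except in the IVF 8-cell embryo, at 10.9 FPKM, where ODF2 gave the whole sum and AKAP4 was at 0. Among the pairs of cells 2 stood apart from all others, because in each a PA 4-cell cell was almost identical to a PA 2-cell cell. Cell 4 of PA 4-cell embryo 1 correlated at r = 0.9985 with cell 2 of PA 2-cell embryo 1, and cell 1 of PA 4-cell embryo 2 at r = 0.9988 with cell 1 of PA 2-cell embryo 2, while the next highest of the 861 pairs of cells reached 0.9079. Values that the 2 PA 4-cell cells enter are therefore also given without them, which leaves 1 cell in PA 4-cell embryo 1, 3 in embryo 2 and 3 in embryo 3. A correlation does not tell which cell of a pair repeats the other, so leaving out the 4-cell cells was a choice. The PA 2-cell cells of these pairs were kept throughout, and how PA 2-cell values and changes from that stage depend on them was not tested.

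YWHAE was by far the most abundant member in every embryo. In IVF 1-cell embryos its level was 1256, 456 and 476 FPKM, and in PA 1-cell embryos 920, 1037 and 1303 FPKM. In IVF 2-cell embryos it was 1000, 654 and 257 FPKM, and in PA 2-cell embryos 1151, 948 and 791 FPKM. The lowest embryo of the series was thus an IVF 2-cell embryo. At the 4-cell stage the IVF embryos had 504, 1502 and 1402 FPKM and the PA embryos 907, 815 and 716 FPKM, and without the 2 near-repeated cells PA 4-cell embryos 1 and 2 were at 365 and 821 FPKM. The 8-cell embryos had the highest levels, 2302 FPKM in IVF and 1756 FPKM in PA. In the order of group means (IVF 8-cell, PA 8-cell, IVF 4-cell, PA 1-cell, PA 2-cell, PA 4-cell, IVF 1-cell, IVF 2-cell), all 5 neighbouring pairs among the groups of 3 embryos were closer than the larger SD of the pair. The PA 4-cell mean without the near repeats, 634 FPKM, took place 8 in this order.

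Ranked by group mean, YWHAE stood between place 5 and place 12 of all nuclear genes in every group, with place 8 in IVF 1-cell, 12 in IVF 2-cell, 5 in IVF 4-cell and 6 in IVF 8-cell embryos. In PA embryos the places were 5, 5, 8 and 6 from the 1-cell to the 8-cell stage. By group median over cells they lay between 5 and 13. YWHAE without the near repeats stood at place 12 by mean and 6 by median in PA 4-cell embryos. In single cells the place ran from 3 to 108, and the lowest place belonged to cell 4 of PA 4-cell embryo 3, which had 152 FPKM of YWHAE. YWHAE made up 82.7% to 96.3% of the summed FPKM of the 6 members in an embryo, with a median of 94.2%, or 94.0% without the near repeats. The family as a whole took 0.277% to 1.76% of the nuclear FPKM of an embryo.

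**Figure D1:**
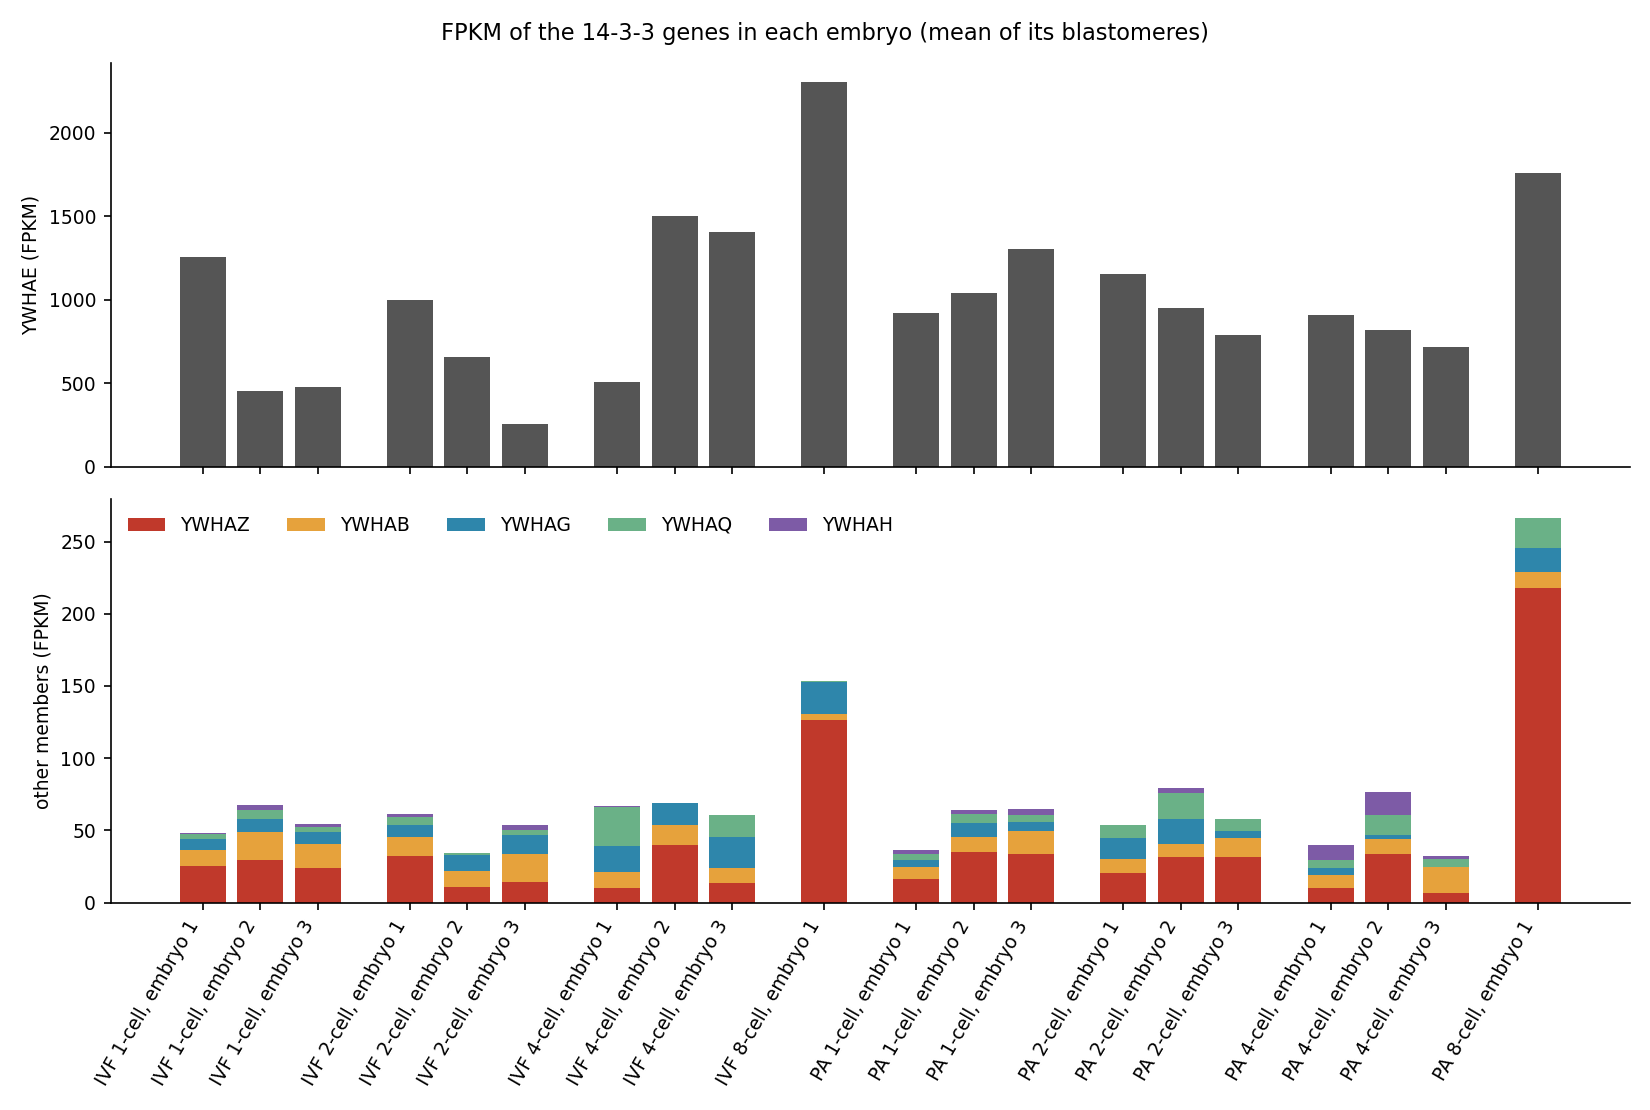
The upper panel shows the FPKM of YWHAE and the lower panel the stacked FPKM of the other 5 members, 1 bar per embryo as the mean of its blastomeres. YWHAE reaches 2302 FPKM in the IVF 8-cell embryo, and the other members together reach 153 FPKM there and 266 FPKM in the PA 8-cell embryo, against 32.2 to 79.3 FPKM in embryos of earlier stages (27.3 to 81.6 FPKM without the 2 near-repeated cells).

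The other members were much lower, and the smallest gap was that to YWHAZ in the PA 8-cell embryo, with 218 against 1756 FPKM. Averaged over the 20 embryos, YWHAZ had 38.1 FPKM ± 49.2 (SD, n = 20), YWHAB 12.3 ± 3.92, YWHAG 10.8 ± 6.25, YWHAQ 8.10 ± 7.28 and YWHAH 2.81 ± 3.88. These means without the near repeats were 37.8, 12.004, 10.5, 7.996 and 3.45 FPKM. The order from YWHAB to YWHAQ lies within these SDs. YWHAB, the beta form, lay between 4.70 and 20.01 FPKM in all embryos, but without its near-repeated cell PA 4-cell embryo 1 had 2.20 FPKM.

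Changes between stages and methods were tested across all 8116 genes that reached 1 FPKM in at least 3 cells, with limma on log2(FPKM + 1) of the embryo means. A gene was called changed at a Benjamini-Hochberg adjusted p below 0.05 and a change of at least 2-fold on that scale, which understates changes of low genes. From the 1-cell to the 2-cell stage none of the 6 members was called, and none had an unadjusted p below 0.05, in IVF (0% of all genes called), in PA (0.0986%) or in both methods together (0%). From the 2-cell to the 4-cell stage again none was called, in IVF (1.11% of all genes), in PA (0.394%) or in both methods together (4.14%), and unadjusted p was below 0.05 for 2 members in PA, YWHAG and YWHAH, and for none in the others. From the 4-cell to the 8-cell stage, 1 member rose in PA, where 9.99% of all genes were called, and 1 in both methods together, where 12.6% were. No member was called in IVF alone, where 6.97% of all genes were, with 1 member at an unadjusted p below 0.05. Between IVF and PA, no member was called at the 1-cell stage (0.0493% of all genes), the 2-cell stage (0%) or the 4-cell stage (0.554%), with 0, 0 and 2 members at an unadjusted p below 0.05. In the limma test of the interaction, whether the step from stage to stage differed between methods, no member was called. Of all genes, 0%, 0% and 2.86% were called for the 3 steps, and 0, 2 and 0 members had an unadjusted p below 0.05. The 2 members were YWHAG and YWHAH, so a missed threshold is not shown to be an equal step.

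**Figure D2:**
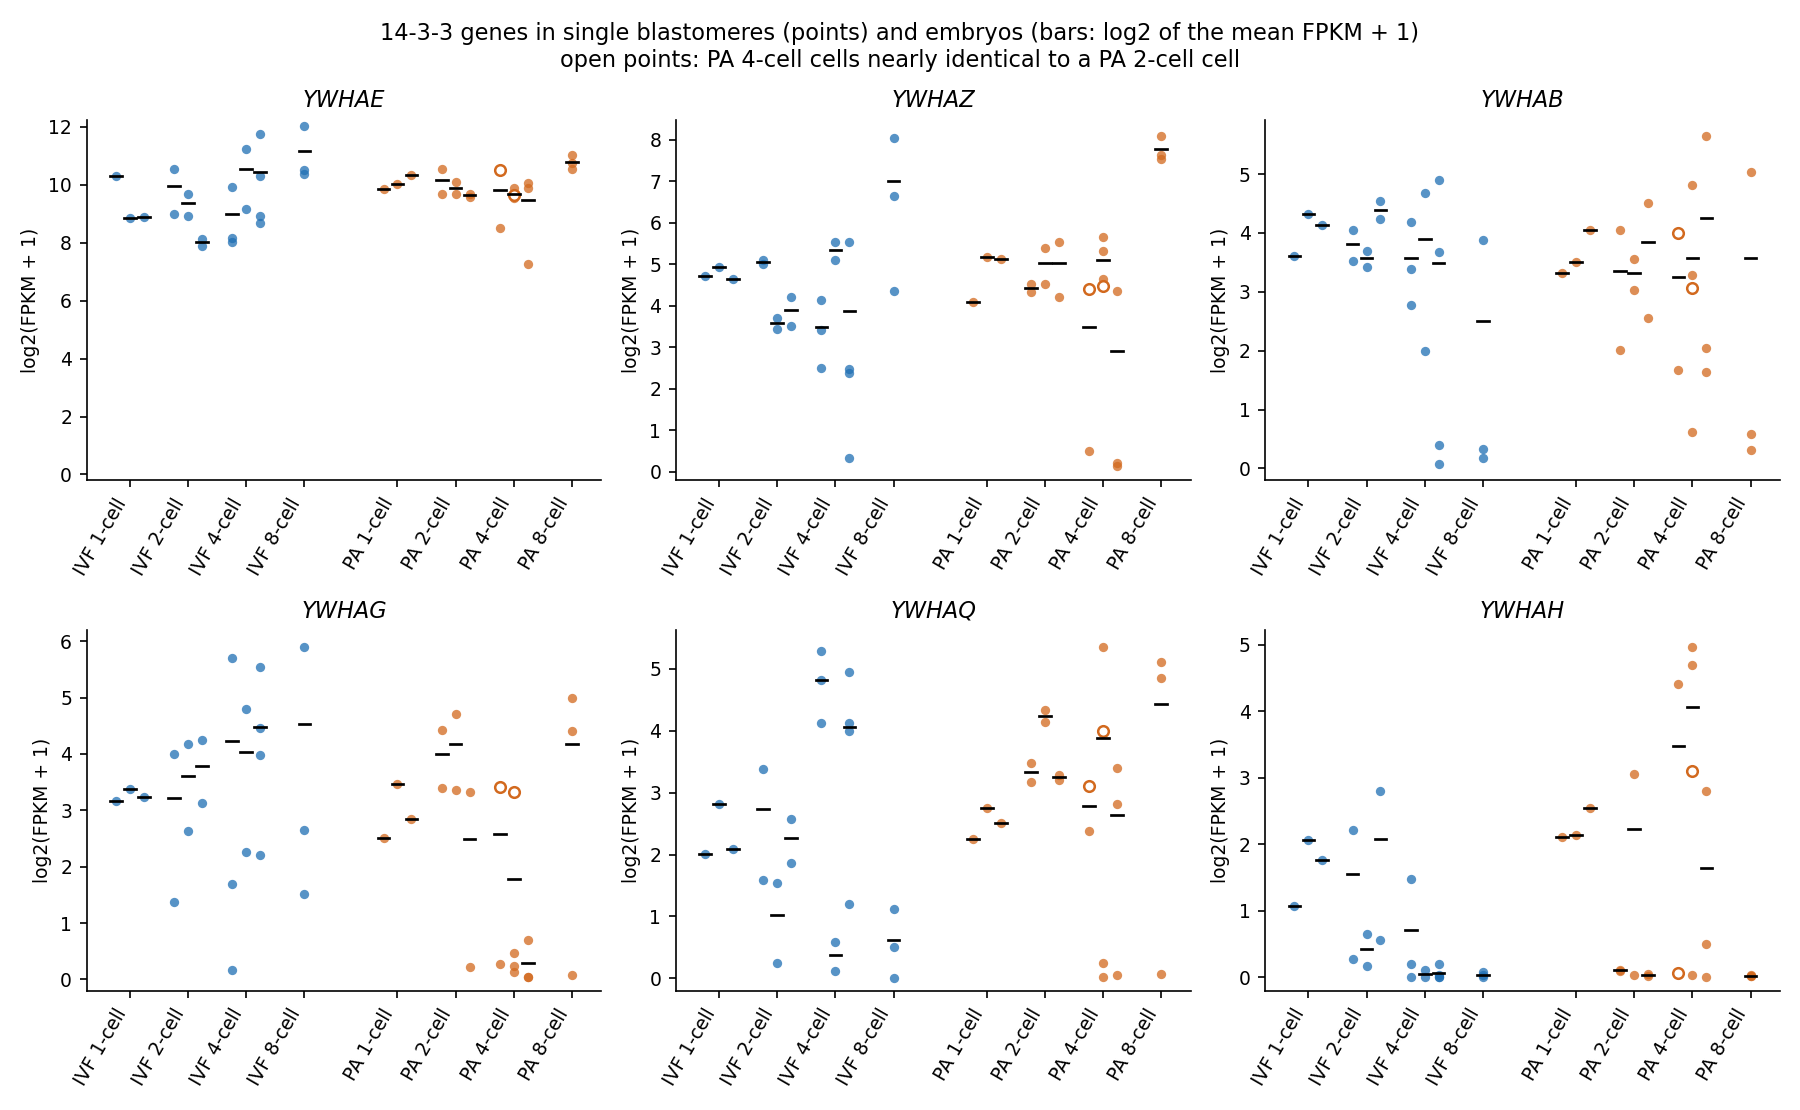
Each panel shows log2(FPKM + 1) of 1 member, with points for single cells, short lines for embryos (log2 of the embryo mean + 1), blue for IVF and orange for PA, and open points for the 2 near-repeated PA 4-cell cells. YWHAZ is higher in 8-cell cells than in all earlier cells, except in 1 IVF 8-cell cell at 19.3 FPKM. YWHAG is under 1 FPKM in the 7 PA 4-cell cells that are not near-repeated. YWHAH is above 1 FPKM in 5 of 9 PA 4-cell cells against 1 of 9 IVF 4-cell cells.

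YWHAZ, the zeta form and a partner of BAD, was the member that rose at the 8-cell stage. In IVF embryos it had 25.1, 29.7 and 24.0 FPKM at the 1-cell stage, 32.2, 10.98 and 13.9 FPKM at the 2-cell stage and 10.3, 39.6 and 13.5 FPKM at the 4-cell stage. In PA embryos the values were 15.98, 34.9 and 33.8 FPKM, then 20.5, 31.5 and 31.4 FPKM, then 10.3, 33.4 and 6.57 FPKM. Without the near repeats the PA 4-cell embryos had 0.417, 37.4 and 6.57 FPKM, so that embryo 1 rested almost wholly on 1 near-repeated cell. Up to the 4-cell stage the embryos of both methods thus overlapped at every stage, and none passed 39.6 FPKM. The 8-cell embryos had 126 FPKM in IVF and 218 FPKM in PA, above all 18 embryos of earlier stages.

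In PA, YWHAZ was 3.93 higher at the 8-cell than at the 4-cell stage on the log2 scale (SE 0.940, adjusted p = 0.0104, limma), and 4.88 higher without the 2 near-repeated cells (adjusted p = 0.0173). In both methods together the rise was 3.34 (SE 0.665, adjusted p = 0.00186), and 3.82 without these cells (adjusted p = 0.00831, 10.6% of all genes called). In IVF alone the difference was 2.76 (SE 0.940, adjusted p = 0.0902) and did not pass. The rise in IVF was smaller than in PA by 1.18 on the log2 scale, with a 95% interval of the difference from -3.96 to 1.61 and an adjusted p of 0.917. These tests rest on 1 embryo per method at the 8-cell stage, whose spread was taken from the groups of 3 embryos, and when only the groups compared entered the fit the adjusted p was 0.300 in PA and 0.113 in both methods together.

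The sister cells of the 8-cell embryos show how far 1 embryo can vary. In the PA embryo all 3 cells were high, with 185, 270 and 198 FPKM of YWHAZ. In the IVF embryo the cells had 260, 98.7 and 19.3 FPKM, so that 1 of 3 lay within the range of earlier stages. By group mean, YWHAZ moved from place 1245 among nuclear genes at the IVF 4-cell stage to place 136 at the IVF 8-cell stage, and from place 960 (981 without the near repeats) to place 67 in PA. Its share of the family was 10.8% in the PA 8-cell embryo and 5.14% in the IVF 8-cell embryo, against 0.879% to 5.68% in earlier embryos, with a lowest value of 0.106% without the near repeats.

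YWHAE was also higher at the 8-cell stage but did not pass the test. The difference from the 4-cell stage was 1.17 in IVF (SE 0.730, adjusted p = 0.430), 1.12 in PA (SE 0.730, adjusted p = 0.464) and 1.15 in both methods together (SE 0.516, adjusted p = 0.175) on the log2 scale, and without the near-repeated cells 1.55 in PA (adjusted p = 0.322) and 1.36 in both (adjusted p = 0.156). Its level in IVF against PA differed by -0.73 at the 1-cell stage (95% interval -1.81 to 0.35) and by -0.79 at the 2-cell stage (-1.87 to 0.30), with adjusted p of 1 and 0.950 in limma. Both intervals include a level in IVF that is 2-fold lower as well as no difference.

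YWHAG, the gamma form, and YWHAH, the eta form, are the closest pair by sequence and stood on opposite sides at the 4-cell stage. YWHAG had 17.8, 15.3 and 21.3 FPKM in the IVF 4-cell embryos and 4.95, 2.43 and 0.227 FPKM in the PA 4-cell embryos. At the 1-cell stage the ranges were 7.93 to 9.37 FPKM in IVF and 4.70 to 10.002 FPKM in PA. At the 2-cell stage they were 8.31 to 12.8 FPKM in IVF and 4.60 to 17.1 FPKM in PA, so the methods overlapped before the 4-cell stage. The 8-cell embryos were close again, at 22.0 FPKM in IVF and 17.1 FPKM in PA.

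On the log2 scale, YWHAG was 2.70 higher in IVF than in PA 4-cell embryos (SE 0.671, adjusted p = 0.0694, limma), which missed the threshold. Both higher PA embryos hold 1 of the near-repeated cells. Without these, the 3 PA 4-cell embryos had 0.213, 0.217 and 0.227 FPKM, all 7 cells were between 0.0250 and 0.625 FPKM with 2 to 50 reads each, and the difference was 3.96 (SE 0.628, adjusted p = 0.00171), with 4.07% of all genes called in that fit. In the same fit YWHAG fell from the 2-cell to the 4-cell stage in PA by 3.27 (adjusted p = 0.00340, 7.41% of all genes called) and rose from the 4-cell to the 8-cell stage by 3.89 (adjusted p = 0.00756, 9.72% called). With all cells these differences were -2.01 (adjusted p = 0.268) and 2.63 (adjusted p = 0.0940). The difference between methods in the step from the 2-cell to the 4-cell stage was 2.72 with all cells (adjusted p = 0.893) and 3.98 without the near repeats (adjusted p = 0.141), so it did not pass in either fit (0.0739% of all genes called in the second).

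YWHAH was low in most embryos and stood out in PA 4-cell embryos. Its levels there were 10.1, 15.7 and 2.14 FPKM, against 0.644, 0.0420 and 0.0411 FPKM in the IVF 4-cell embryos. Without the near repeats the PA 4-cell embryos had 20.2, 18.4 and 2.14 FPKM. In the 1-cell embryos it had 1.11 to 3.18 FPKM in IVF and 3.30 to 4.82 FPKM in PA, and both 8-cell embryos were near 0, at 0.0261 FPKM in IVF and 0.0160 FPKM in PA. The PA 2-cell embryos had 0.0754, 3.68 and 0.0244 FPKM, and the embryo at 3.68 FPKM owed this to 1 of its 2 cells, the one with a near repeat in PA 4-cell embryo 2. On the log2 scale the IVF 4-cell embryos were 2.78 below the PA 4-cell embryos (value -2.78, SE 0.798, adjusted p = 0.106), and without the near repeats the value was -3.17 (adjusted p = 0.0384) and passed. The rise from the PA 2-cell to the PA 4-cell stage was 2.27 (adjusted p = 0.285) and the change to the 8-cell stage -3.04 (adjusted p = 0.106), and both missed the threshold also without the near repeats (adjusted p = 0.0597 and 0.0781).

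**Figure D3:**
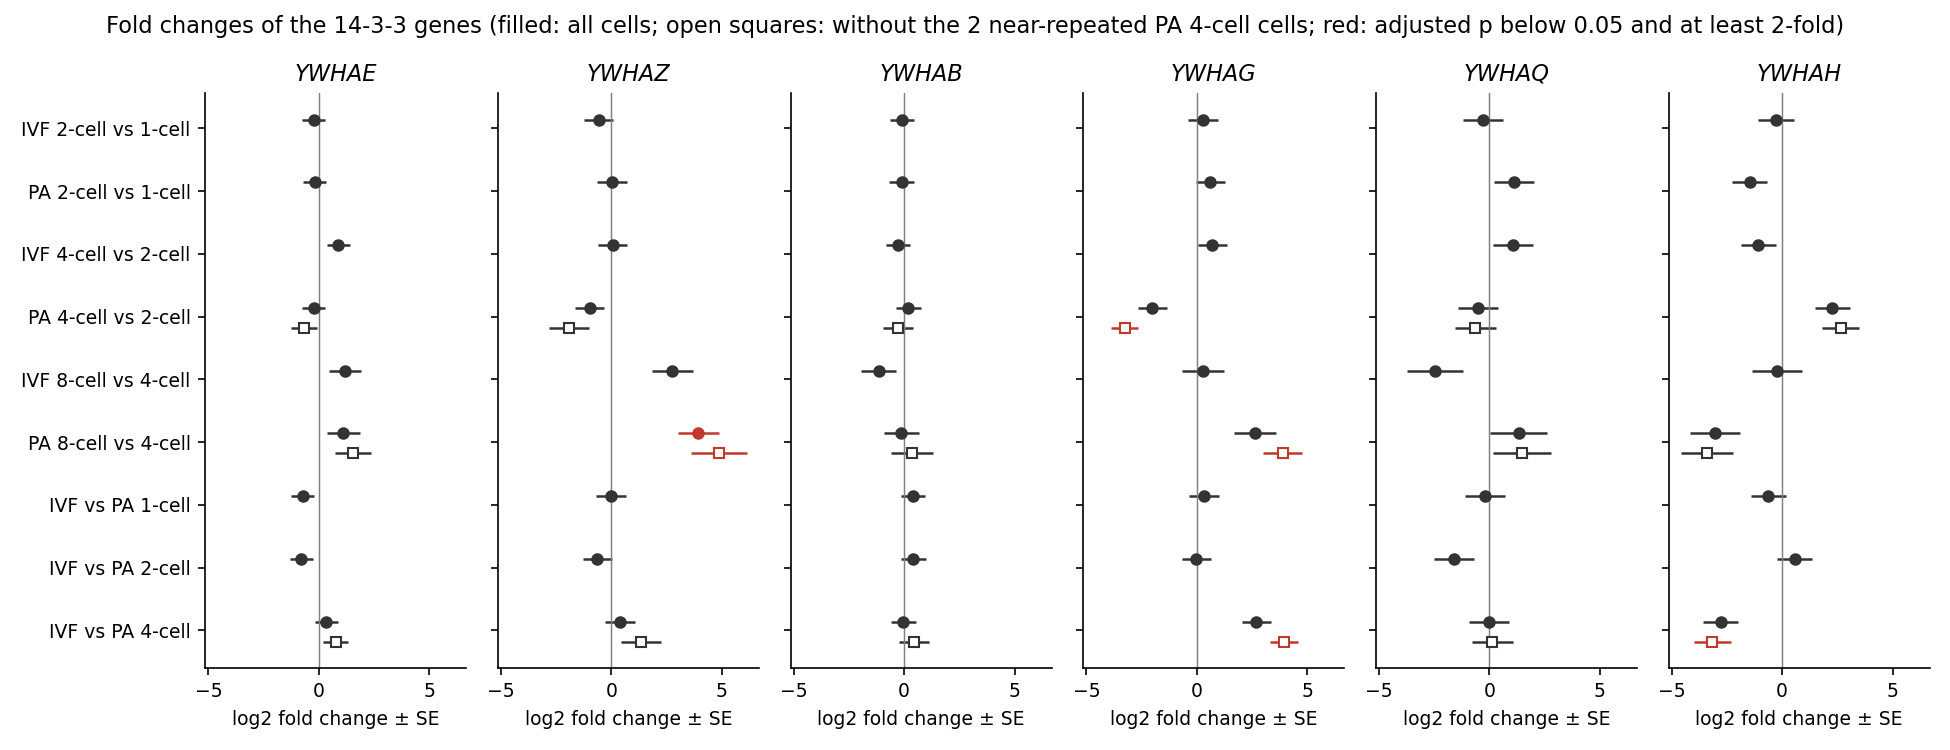
Points show log2 fold changes of each member with their SE, the first group over the second, for 9 comparisons; filled circles use all cells, open squares leave out the 2 near-repeated PA 4-cell cells, and red marks adjusted p below 0.05 with at least a 2-fold change. With all cells the only red circle is YWHAZ in PA 8-cell against 4-cell embryos. Without the near repeats YWHAZ stays red in that comparison, and YWHAG is red in 3 comparisons and YWHAH in 1.

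YWHAQ, the theta form, had an SD between embryos of a group of 1.12 on the log2 scale, against 0.378 for YWHAB and 0.747 for YWHAZ. Without the near repeats these SDs were 1.13, 0.638 and 1.14. The IVF 4-cell embryos had 27.3, 0.297 and 15.7 FPKM. The IVF 8-cell embryo had 0.532 FPKM and the PA 8-cell embryo 20.5 FPKM, which lies above the PA 4-cell embryos at 5.91, 13.8 and 5.22 FPKM (4.23, 13.4 and 5.22 FPKM without the near repeats). The change from the IVF 4-cell to the IVF 8-cell stage was -2.47 (SE 1.28, adjusted p = 0.309), and without IVF 4-cell embryo 2, the low one, it was -3.83 (adjusted p = 0.0108). The step to the 8-cell stage differed between methods by -3.79 (SE 1.81, adjusted p = 0.345; -3.94 and 0.322 without the near repeats), and without that embryo by -5.15 (adjusted p = 0.0258), so 1 embryo decides both calls. YWHAB changed by -1.14 from the IVF 4-cell to the IVF 8-cell stage (SE 0.790, adjusted p = 0.488), and its 95% interval ran from -2.79 to 0.51.

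Sister blastomeres of 1 embryo were compared by the ratio of the highest to the lowest sister, in embryos with more than 3 reads in each sister. For YWHAE the ratio had a median of 2.40 over 14 embryos and never passed 8.35. YWHAZ and YWHAQ had similar medians of 2.09 and 2.09, but 4 of 14 and 2 of 10 embryos reached 10. The limit on reads left out YWHAQ embryos with wide gaps between sisters, so its median understates them. Their lowest and highest sisters had 0.0193 and 40.1 FPKM in PA 4-cell embryo 2 and 0.0381 and 9.59 FPKM in PA 4-cell embryo 3. In the PA 8-cell embryo they had 0.0442 and 33.7 FPKM. For YWHAB, YWHAG and YWHAH the medians were 5.95, 12.6 and 14.9, over 14, 13 and 6 embryos. The medians without the near repeats were 1.80 for YWHAE, 1.87 for YWHAZ, 2.31 for YWHAQ, 5.13 for YWHAB, 8.20 for YWHAG and 12.7 for YWHAH. In log2(FPKM + 1), the SD between sisters at the 2-cell stage was 0.581 for YWHAE, 0.507 for YWHAZ, 0.851 for YWHAB and 0.676 for YWHAQ. The median over all genes tested was 0.943. At the 4-cell stage without the near repeats the SD was 1.24 for YWHAE, 1.65 for YWHAZ, 2.02 for YWHAB and 1.83 for YWHAQ, against 1.38 over all genes. With all cells these SDs were 1.204, 1.71, 1.90 and 1.76 against 1.40.

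How many single cells had low values of the other members differed between stages and between members. All 6 cells of the 1-cell stage had at least 1 FPKM of every member. At the 2-cell stage, 9 of 12 cells were below 1 FPKM for YWHAH, 1 for YWHAG, 1 for YWHAQ, 0 for YWHAZ and 0 for YWHAB. At the 4-cell stage, 4 of 18 cells were below 1 FPKM for YWHAZ, 3 for YWHAB, 8 for YWHAG, 5 for YWHAQ and 12 for YWHAH, and without the near repeats the counts were 4, 3, 8, 5 and 11 of 16. At the 8-cell stage 0 of 6 cells were below it for YWHAZ, 1 for YWHAG, 3 for YWHAQ, 4 for YWHAB and 6 for YWHAH. Most of these cells still had reads, since YWHAZ, YWHAB and YWHAG were above 0 in all 42 cells, YWHAQ was at 0 in 1 cell and YWHAH in 6. For YWHAB the low 8-cell cells had 0.136 to 0.495 FPKM and the other 2, 1 in each embryo, had 13.7 and 31.9 FPKM. YWHAE was above 150 FPKM in all 42 cells. These counts follow single cDNA amplifications, and the part that loss during amplification has in them was not tested.

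Over the 20 embryos, the genes whose log2 levels followed each member most closely were, for YWHAE, ZNF367 (Pearson r = 0.808), MCM3 (0.771) and EIF3H (0.751). For YWHAZ they were RPL22 (0.857), FAM98A (0.843) and HSPD1 (0.842), and for YWHAG UBAP2 (0.865), UPF2 (0.835) and ARHGAP11A (0.794). YWHAB was closest to ZBTB39 (0.808), RIOK3 (0.801) and ARIH1 (0.762), YWHAQ to YPEL1 (0.822), UBN2 (0.709) and NKIRAS1 (0.697), and YWHAH to WDR66 (0.770), KIDINS220 (0.753) and WNT3 (0.738). By rank correlation, none of the 3 genes named for YWHAZ and 1 of 3 for YWHAE and for YWHAH stayed among the 3 closest. These correlations were the highest of 8115 and the points share stages, methods and the scale of their cells. Without the near repeats the 18 correlations named here lay between 0.533 and 0.873. Among the members themselves, YWHAE and YWHAZ had r = 0.585 and YWHAG and YWHAH r = -0.520, or 0.662 and -0.71 without the near repeats.

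The proteins that 14-3-3 proteins bind, and the kinases that write their binding sites, were followed in 6 lists with 73 genes, of which 66 were in the table and 47 were tested. Changes were called from the 4-cell to the 8-cell stage and, for 1 gene, between the methods at the 4-cell stage. In the list of clients and kinases of the M-phase switch, 3 of 9 genes tested fell in IVF and 3 of 9 in PA, with medians of -2.33 and -0.66 on the log2 scale against -0.38 and -0.15 over all genes tested. With the near repeats left out, 2 of 9 fell in IVF and 0 of 9 in PA by limma. In PA, 3 of 9 then had an unadjusted p below 0.05, counted in either direction. The median in PA was 0.55, so the calls and the lower median of this list in PA rest on those 2 cells. The list did not move one way. With all cells, CHEK2, PLK1, CDK1 and CDC25B were higher at the PA 8-cell stage (log2 differences 3.44, 2.63, 2.39 and 0.74), and the other genes tested were lower. In IVF, PLK1 and CDK1 were higher (2.33 and 1.75), and the other genes tested were lower. None of these higher values was called. Of all genes, 3.72% rose and 3.25% fell over this step in IVF, and 6.81% rose and 3.18% fell in PA. WEE2, an oocyte kinase that keeps CDK1 inactive, fell from levels between 204 and 278 FPKM in the 3 IVF 4-cell embryos to 0.697 FPKM in the IVF 8-cell embryo (log2 change -7.09, SE 0.688, adjusted p = 2.44e-06, limma). In PA it fell from levels between 129 and 326 FPKM to 8.09 FPKM (log2 change -4.33, adjusted p = 0.000407), but without the 2 near-repeated cells the 4-cell embryos had 3.13, 256 and 142 FPKM, the change was -2.55 (adjusted p = 0.363) and it did not pass. CDC25C, a phosphatase that activates CDK1 and a classic 14-3-3 client, fell to 0.0859 FPKM in IVF (log2 change -5.13, adjusted p = 0.00283) and 0.106 FPKM in PA (-4.31, adjusted p = 0.00884), where it too did not pass without these cells (-3.13, adjusted p = 0.217).

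CDC25B, the phosphatase most linked to the resumption of meiosis, fell in IVF from 28.7, 28.5 and 4.04 FPKM to 0.0817 FPKM (log2 change -3.92, adjusted p = 0.0385). In the fit without the near-repeated PA cells, which share the estimate of the spread, its adjusted p was 0.108, and without IVF 4-cell embryo 1 or 2 it was 0.0788 or 0.0604. In PA it had 4.11 to 18.8 FPKM at the 4-cell stage (0.189 to 18.8 FPKM without the near repeats) and 13.9 FPKM at the 8-cell stage. CCNB1, the cyclin partner of CDK1, fell in PA from levels between 22.4 and 49.2 FPKM to 1.78 FPKM (log2 change -3.45, adjusted p = 0.0116), and by the value -2.35 without the near repeats, which did not pass (adjusted p = 0.309). The oocyte gene BMP15, a marker of stored transcripts that was chosen from its list after its values were seen, fell over the same step, from a mean of 136 FPKM to 0.357 FPKM in IVF and from 136 FPKM to 4.47 FPKM in PA, as the 1 of 7 oocyte markers called down in IVF and, with ZP4, 1 of the 2 of 7 called down in PA. BMP15 and ZP4 passed in PA also with the near repeats left out (adjusted p = 0.00401 and 0.00371). No oocyte marker was called up, but the others did not all go one way in PA, where ZP2 had a mean of 1.66 FPKM at the 4-cell and 29.2 FPKM at the 8-cell stage (adjusted p = 0.118, or 0.0709 without the near repeats) and GDF9 11.5 and 12.5 FPKM. The part of stored transcripts in the change of the M-phase genes was not tested.

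**Figure D4:**
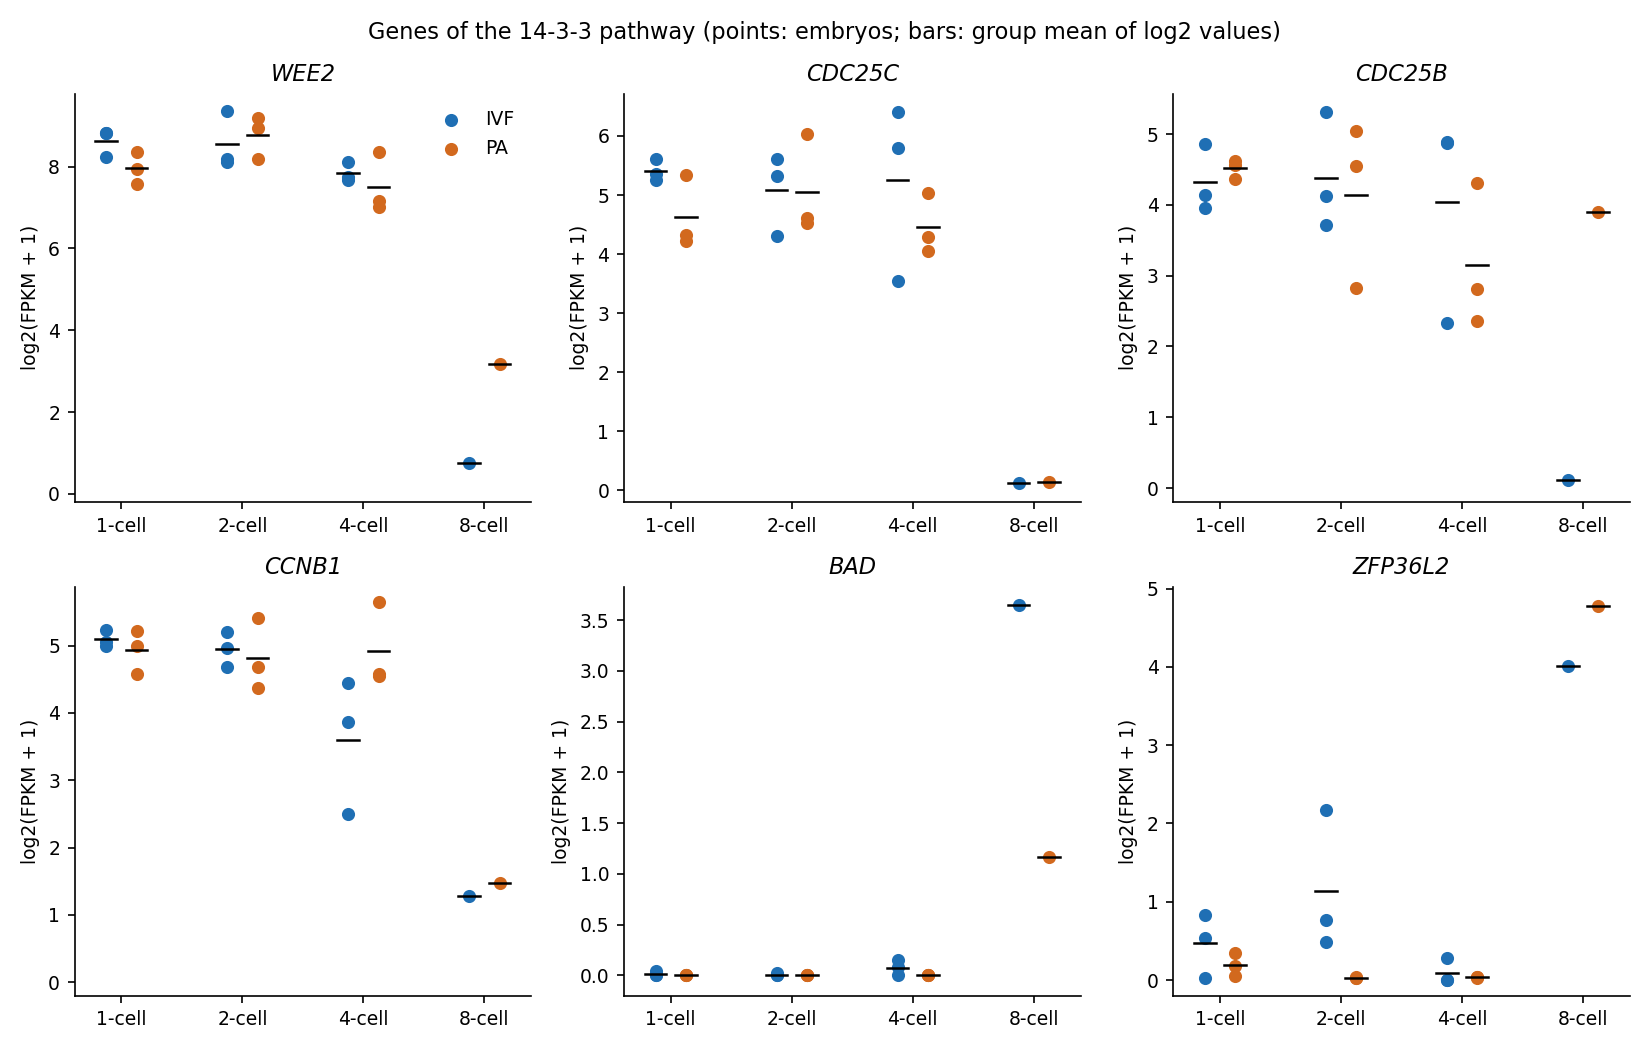
Points show log2(FPKM + 1) of 6 genes of the 14-3-3 pathway in each embryo by stage, blue for IVF and orange for PA, with short lines at the group mean of the log2 values. All cells enter the points, and WEE2 and CDC25C are then lowest in both 8-cell embryos. Without the near-repeated cells, WEE2 in PA 4-cell embryo 1 is at 3.13 FPKM, below the PA 8-cell embryo at 8.09 FPKM. BAD is at or below 0.110 FPKM in all embryos up to the 4-cell stage and ZFP36L2 at or below 3.52 FPKM. Both 8-cell embryos lie above these levels for ZFP36L2 and BAD.

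In the other lists single genes moved. BAD, a pro-death BCL2 family protein that 14-3-3 proteins hold in the cytosol, was 1 of 8 genes called in the list of growth factor, survival and TOR signalling. It passed the filter on low values only through 8-cell cells. Its tests over the step to the 8-cell stage are therefore descriptions and give no support for a rise or for a difference between methods. It was at 0 to 0.110 FPKM in the IVF 4-cell embryos and at 11.5 FPKM in the IVF 8-cell embryo (log2 difference 3.57, adjusted p = 2.75e-06). In PA it was listed at 0 in all 3 embryos of the 4-cell stage and at 1.24 FPKM at the 8-cell stage (adjusted p = 0.0412, and 0.0514 to 0.0697 when any 1 of the 3 PA 4-cell embryos was left out, and 0.0425 without the near repeats), and the step was larger in IVF by 2.41 on the log2 scale (adjusted p = 0.0143, and 0.0131 without the near repeats).

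ZFP36L2, which destabilizes transcripts with AU-rich elements and is bound by 14-3-3 when phosphorylated, was 1 of 6 genes called in the list of mRNA decay and translation. It rose from at most 0.216 FPKM in IVF 4-cell embryos to 15.1 FPKM in the IVF 8-cell embryo (log2 change 3.91, adjusted p = 0.00128) and from at most 0.0268 to 26.5 FPKM in PA (4.75, adjusted p = 0.000226, and 4.74 with 0.000292 without the near repeats). MDM4, a brake on p53, rose in PA from at most 0.731 to 15.9 FPKM (3.70, adjusted p = 0.0387, and 3.80 with 0.0330 without the near repeats, but 0.0652 or 0.0729 without PA 4-cell embryo 1 or 2), as 1 of 7 transcription regulators tested. SSH1, a phosphatase of cofilin, was the 1 of 5 polarity and cytoskeleton genes that was called, with 0.149, 0.00959 and 3.83 FPKM in IVF 4-cell embryos against 81.4, 36.1 and 11.04 FPKM in PA 4-cell embryos (log2 difference -4.23, adjusted p = 0.0409). Its adjusted p was 0.0563 without IVF 4-cell embryo 2, 0.0648 without PA 4-cell embryo 2 and 0.00619 without the near-repeated cells.

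Among 12 kinases tested, SIK2 rose in IVF from at most 0.0220 to 6.11 FPKM (2.81, adjusted p = 0.0301). SGK1, a kinase induced by serum and glucocorticoids, had at most 0.00353 FPKM in PA 4-cell embryos and 3.95 FPKM in the PA 8-cell embryo. The log2 difference was 2.30 (adjusted p = 0.0178, limma, and 2.31 with 0.0181 without the near repeats). Before the 8-cell stage only IVF 4-cell embryo 2, at 3.79 FPKM in 2 cells, was above 0.0372 FPKM. SGK1 therefore passed the filter on low values only with 8-cell cells, and its test is a description that gives no support for a rise. The 8-cell values of these genes are again those of 1 embryo per method. BAD, ZFP36L2, SIK2 and SGK1 were below 1 FPKM in most embryos of earlier stages, so these groups give a small spread and the adjusted p carries no measure of how far 8-cell embryos differ.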

How the data were processed

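RNA of 42 single blastomeres from 20 pig embryos was amplified, per the study's methods, as cDNA of transcripts with or without a poly(A) tail; the labels' extraction text names another kit, so the library chemistry is uncertain. The authors aligned reads with HISAT2 to Sscrofa 11.1 and deposited FPKM per gene in 1 table. Of its genes, 794 carried an ID but no name and were named from a gene table where possible; YWHAZ was among them. The gene the file names YWHAE is listed as CRK in that table, but it lies on the RefSeq YWHAE gene and the file holds a separate CRK, so the file's name was kept.

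The members and gene lists were chosen with earlier results of these data known. Groups, embryo and blastomere numbers came from the labels. Embryo values (mean FPKM of the blastomeres) were tested as log2(FPKM + 1) with limma 3.58.1 (R 4.3.3, trend on the mean), all 8 groups in 1 fit, over 8116 genes with at least 1 FPKM in at least 3 cells, with Benjamini-Hochberg adjustment over all of them. Other steps used Python 3.11.15, numpy 2.4.6, pandas 2.3.3, matplotlib 3.10.9, MAFFT 7.526 and minimap2 2.31. The fit was tested on simulated data only for IVF against PA 4-cell embryos, with 3 embryos per group, so comparisons with the single 8-cell embryos were not covered. Nothing in the labels says that embryos came from separate collections, so p-values measure the spread between these embryos. Named genes were all members, the list genes called in any comparison (at most 5 per list, by size of change, 1 of which is not reported here), and the 3 genes most correlated with each member. Depth was read from the FPKM steps. Alternatives were other pseudocounts, filters, scalings, embryo summaries, the groups in the fit, a replicate block, and leaving out the 2 near-repeated cells or each embryo.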

Additional observations from a re-analysis of the deposited data

Results flagged for a closer look

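The rise of BAD from the 4-cell to the 8-cell stage differed between the methods, by 2.41 on the log2 scale (SE 0.500, adjusted p = 0.0143 in the limma test of the interaction). BAD was at 11.5 FPKM in the IVF 8-cell embryo and at 1.24 FPKM in the PA 8-cell embryo, each a single embryo, and at or below 0.110 FPKM in the 18 embryos of earlier stages. It passed the filter on low values only through 8-cell cells, so the test is a description and gives no support for a difference between methods.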

How the results depend on the processing

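None of the 36 named log2 fold changes changed sign in 517 values under alternatives: 439 kept their side of the threshold, 58 fell short of it and 20 passed it newly. Fitting only the groups compared called 0 members from the 4-cell to the 8-cell stage in PA and 0 in both methods together, with 97 and 296 of all genes called against 811 and 1023. Median-ratio scaling over 1064 nuclear genes (factors 0.0389 to 4.17), which moved the median change of all genes in IVF from -0.38 to -0.04 over the last step, called 1 member in IVF, 3 in PA and 4 in both over that step, 3 in PA and 2 in both from the 2-cell to the 4-cell stage, 2 between the methods at the 4-cell stage, and 1 and 2 in the interactions of these steps. With pseudocount 5, 1 member was called in IVF over the last step. Without the 2 near-repeated cells, 1 member was called in PA from the 2-cell to the 4-cell stage, 2 in PA and 2 in both from the 4-cell to the 8-cell stage, and 2 between the methods at the 4-cell stage; over all genes 601 and 330 were called in the first and last of these against 32 and 45. Leaving out 1 embryo gave 0 to 2 members in IVF and 1 to 2 in PA over the last step, 0 to 1 between the methods at the 4-cell stage and 0 to 1 in the last interaction. The embryos that decide calls are IVF 4-cell embryo 2 (without it YWHAZ rose by 3.31 in IVF, adjusted p = 0.0211, limma), PA 4-cell embryo 1 (YWHAG in PA 3.14, adjusted p = 0.0427, and between the methods 3.21, adjusted p = 0.0381), IVF 4-cell embryo 1 (YWHAG between the methods 2.70, adjusted p = 0.0377) and PA 4-cell embryo 3 (YWHAH in PA -3.75, adjusted p = 0.0343). The embryo numbers did not pair the groups. Deviations of same-numbered embryos correlated at most at 0.127, except between PA 2-cell and PA 4-cell embryos (0.355, 0.282 and 0.1), where the values without the 2 near-repeated cells were -0.01, 0.01 and -0.01. With the embryo number as a replicate block, YWHAZ rose by 4.16 in PA (adjusted p = 0.0103) and by 3.57 in both (adjusted p = 0.00272), and the block changed no member's call. The cause of these changes was not tested beyond the construction of each alternative. The 8-cell stage holds 1 embryo per method, so its own spread between embryos was not measured.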
